A study of Rattus norvegicus with 24 samples.

Results

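Pulmonary surfactant is the lipid and protein film that lowers the surface tension of the alveoli, and it is made by alveolar type II cells. The genes described here were chosen by name as 8 genes of surfactant production: the surfactant proteins Sftpa1, Sftpb, Sftpc and Sftpd, the lipid transporter Abca3, the aspartic protease Napsa, the lysosomal membrane protein Lamp3 and the phospholipid-remodelling enzyme Lpcat1. Of the 8 genes, 7 were matched by accession to 1 probe each, out of 15443 gene symbols on the array, and Abca3 was not matched and is not analysed here. All 7 probes were well above background on all 24 arrays, so none of the 7 depended on the filter for dim probes.

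The mRNA came from whole lung of Fischer-344 rats of both sexes, with no genetic modification named in the labels. Their age was given as 7 to 8 weeks, and by the study's text they were bought at 7 weeks, before exposure began. In whole lung the level of a gene joins the share of type II cells in the tissue with the mRNA in each cell. Fewer type II cells and less mRNA per cell cannot be told apart in such samples. Control rats breathed filtered air in a nose-only chamber. Exposed rats breathed hexanal, a straight-chain aldehyde released by lipid oxidation, for 4 hours per day on 5 days per week at 600 ppm (the low-dose group), 1000 ppm (middle-dose) or 1500 ppm (high-dose). The labels give 5 weeks of exposure and name the doses in ppm and in mg per cubic meter, while the study's text gives a shorter exposure and ppm. Each group held 6 rats, 3 males and 3 females, and each rat was measured on 1 one-colour array.

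In background, SP-A and SP-D (the products of Sftpa1 and Sftpd) are collectins that bind microbes in the airspace, whereas SP-B and SP-C (from Sftpb and Sftpc) are small hydrophobic proteins that spread the lipid film. Surfactant is stored in lamellar bodies, lysosome-related organelles in which Lamp3 and Abca3 reside and in which napsin A, the product of Napsa, helps to process the SP-B precursor. Lpcat1 remodels phosphatidylcholine to the saturated form that dominates surfactant. The transcription factor Nkx2-1, together with forkhead and C/EBP factors, is known to drive many of these genes.

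The promoters of 5 of the 8 genes were held in the RefSeq table used (GRCr8). Those of Sftpb, Sftpa1 and Lpcat1 are shown because these genes had the largest mean differences in the high-dose group. Each window runs from 250 bases before to 50 bases after the start of transcription, 5′ to 3′ on the gene's strand. Capitals mark matches on either strand to the Nkx2-1 core CTCAAG, the forkhead motifs TGTTTAC and TGTTTGC, the AP-1 motif TGACTCA and the C/EBP motif TTGCNNAA.
Sftpb, chr4:105917338-105917637, + strand: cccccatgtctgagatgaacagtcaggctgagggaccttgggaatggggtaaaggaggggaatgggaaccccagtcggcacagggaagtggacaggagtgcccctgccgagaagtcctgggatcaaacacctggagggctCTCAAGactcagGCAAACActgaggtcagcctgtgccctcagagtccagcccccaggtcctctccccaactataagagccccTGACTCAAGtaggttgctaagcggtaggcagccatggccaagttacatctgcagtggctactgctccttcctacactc
Sftpa1, chr16:17042014-17042313, + strand: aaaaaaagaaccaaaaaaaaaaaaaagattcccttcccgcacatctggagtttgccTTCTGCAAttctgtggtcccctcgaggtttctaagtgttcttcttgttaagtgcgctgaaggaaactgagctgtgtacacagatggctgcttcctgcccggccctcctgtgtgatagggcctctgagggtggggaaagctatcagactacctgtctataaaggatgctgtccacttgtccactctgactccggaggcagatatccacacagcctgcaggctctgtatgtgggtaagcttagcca
Lpcat1, chr1:31644897-31645196, - strand: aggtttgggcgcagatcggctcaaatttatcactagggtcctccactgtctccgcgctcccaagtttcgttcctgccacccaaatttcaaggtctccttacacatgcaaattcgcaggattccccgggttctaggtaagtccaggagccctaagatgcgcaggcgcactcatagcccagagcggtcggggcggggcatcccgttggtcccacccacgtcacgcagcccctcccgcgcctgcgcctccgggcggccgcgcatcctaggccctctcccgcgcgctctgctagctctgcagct
The Sftpb window held 4 matches. CTCAAG was found at -110 to -105 and again at -25 to -20, where it overlaps TGACTCA at -28 to -22, and TGTTTGC was found on the opposite strand at -98 to -92. The Sftpa1 window held 1 match, to TTGCNNAA on the opposite strand at -194 to -187. The windows of Lpcat1, Abca3 and Lamp3 held none of these letters. Among all 33469 promoters in the table, 15.8% held CTCAAG, 8.43% a forkhead motif, 4.63% TGACTCA and 10.6% TTGCNNAA.
The windows also differed in CpG content. The Lpcat1 window held 25 CpG and the Abca3 window 37, while the Sftpa1 window held 5 and those of Sftpb and Lamp3 held 3 each, against a median of 7 over all promoters.

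Levels are given as the log2 signal relative to the 75th percentile of the same array, and the calling rule used the thresholds of the study, a change of 1.5-fold or more with an unadjusted p-value under 0.05, but with the p-value of limma in place of the study's own test (the methods' t-test). None of the 7 surfactant genes was called in the low-dose group, where 0.617% of the 21243 genes or unnamed probes tested were called. None was called in the middle-dose group, where 1.64% of all were called, and none in the high-dose group, where 1.22% were. With the methods' t-test the count was 0 of 7 at each dose as well, beside 0.41%, 1.41% and 0.885% of all genes (87, 299 and 188 genes, against 131, 348 and 260 with limma). At a limma adjusted p-value under 0.05 the count was again 0 of 7 in each comparison, beside 0%, 0.0188% and 0.00471% of all genes in the low-, middle- and high-dose groups. At an unadjusted p-value under 0.05 alone, limma passed 0, 0 and 1 of the 7 genes, the 1 gene being Lpcat1 in the high-dose group, and the methods' t-test passed 1, 0 and 1, with Napsa in the low-dose group and Lpcat1 in the high-dose group. Over all genes limma passed 4.33%, 8.99% and 6.97% in the low-, middle- and high-dose groups and the methods' t-test 5.36%, 8.65% and 6.66%.

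With the main scaling, all 21 intervals at 95% confidence, 7 genes at 3 doses, lay within 1.5-fold of control in either direction (0.585 on the log2 scale). Their outermost bounds were -0.29 and 0.34 in the low-dose group, -0.35 and 0.28 in the middle-dose group and -0.55 and 0.25 in the high-dose group. Over all genes tested, 76.1%, 72.6% and 73.7% of the intervals lay within the same limits. The 21 intervals also lay inside under 10 of the 14 other settings, and in the other 4 every interval outside was in the high-dose group. With the slide as a fixed block those of 4 genes (Sftpc, Sftpd, Lamp3 and Lpcat1) reached beyond 1.5-fold, the outermost bounds being -0.74 and 0.90, and 35.8% of the intervals of all genes lay inside. In the authors' table without scaling those of Lpcat1 (-0.80 to 0.041) and Sftpa1 (-0.62 to 0.16) did, with 68.9% of all genes inside. Scaling to the array median and the methods' t-test put the lower bound of Lpcat1 at -0.60 and -0.59. No slide held both control and high-dose arrays.

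**Figure D1:**
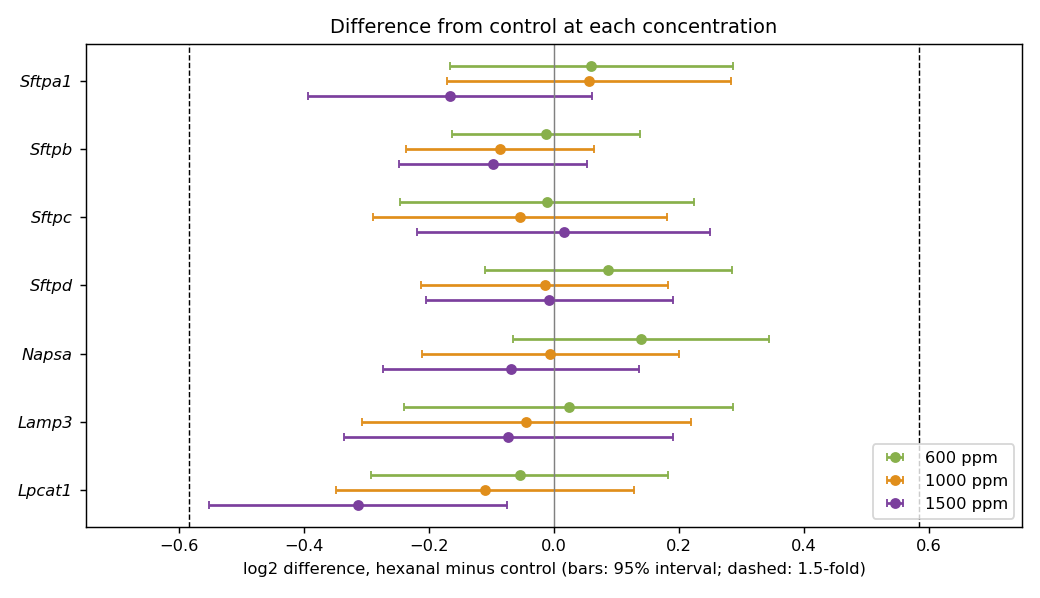
Difference of each of the 7 genes from control (log2, horizontal axis) at each hexanal concentration. Points are means of 6 rats minus the mean of 6 controls, bars are 95% intervals from limma, dashed lines mark 1.5-fold, and the lowest point is Lpcat1 at 1500 ppm with -0.31.

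The collectin gene Sftpa1 had its largest difference in the high-dose group. Its level ran from 5.59 to 5.94 (median 5.70) in control rats, from 5.57 to 5.97 (median 5.84) in the low-dose group, from 5.54 to 6.14 (median 5.76) in the middle-dose group and from 5.29 to 5.94 (median 5.56) in the high-dose group. The 3 high-dose females lay below every control rat and the 3 high-dose males lay within the control range, so the groups overlapped. The mean difference in the high-dose group was -0.17 (SE 0.11, limma adjusted p = 0.803), with an exact permutation p of 0.141. It was -0.29 in females and -0.044 in males, and the difference between the sexes did not pass the test (limma adjusted p = 0.476).

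The other collectin gene, Sftpd, had smaller differences. Its level ran from 6.10 to 6.44 (median 6.32) in control rats, from 6.15 to 6.57 (median 6.41) in the low-dose group, from 6.01 to 6.51 (median 6.29) in the middle-dose group and from 6.07 to 6.59 (median 6.26) in the high-dose group. In the low-dose group 3 of 6 rats were above every control, and the mean difference was 0.087 with a 95% interval of -0.11 to 0.28. The mean differences in the middle- and high-dose groups were -0.015 and -0.0076.

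Sftpb, whose protein is needed for the surface film, had a pooled SD of 0.12 between rats of a group, the smallest of the 7 with this scaling. After quantile normalization and in the unscaled table that of Sftpc was smaller (0.038 against 0.099, and 0.12 against 0.18 for Sftpb). Its level ran from 7.17 to 7.35 (median 7.25) in control rats, from 7.02 to 7.34 (median 7.26) in the low-dose group, from 6.89 to 7.36 (median 7.19) in the middle-dose group and from 7.02 to 7.28 (median 7.11) in the high-dose group. In the high-dose group 4 of 6 rats were below every control and the ranges still overlapped. The mean difference there was -0.097 (SE 0.073, limma adjusted p = 0.823, exact permutation p = 0.0693), or 0.935-fold with a 95% interval of 0.842 to 1.04. It was alike in size in females (-0.0997) and males (-0.0951). After quantile normalization the difference was -0.15 with a limma adjusted p of 0.620, and with the slide as a fixed block it was 0.17.

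Sftpc, the gene that most narrowly marks type II cells, had mean levels of 7.78 ± 0.23 in control rats, 7.77 ± 0.16 in the low-dose group, 7.73 ± 0.21 in the middle-dose group and 7.80 ± 0.18 in the high-dose group (SD, n = 6). Single rats ran from 7.47 to 8.04 (median 7.86), from 7.55 to 8.00 (median 7.79), from 7.35 to 7.96 (median 7.74) and from 7.59 to 8.11 (median 7.75) in the same order. No dose group stood apart, and the largest mean difference was -0.054, in the middle-dose group. Its probe was the brightest of the 7, at up to 88.9% of the scanner's saturation value. Whether its signal was compressed was not tested. The sexes differed in sign at every dose, with differences of 0.14, 0.16 and 0.17 in males and of -0.16, -0.27 and -0.14 in females from the lowest to the highest dose. These 3 comparisons share the same controls, and no difference between the sexes passed the test (limma adjusted p = 0.956, 0.556 and 0.452). Within the control group itself the 3 females (7.89 to 8.04) lay above the 3 males (7.47 to 7.83).

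Napsa, the aspartic protease, had the largest positive difference, in the low-dose group. Its level ran from 5.35 to 5.66 (median 5.55) in control rats, from 5.53 to 5.73 (median 5.67) in the low-dose group, from 5.32 to 5.80 (median 5.45) in the middle-dose group and from 5.10 to 5.73 (median 5.44) in the high-dose group. The low-dose mean was 0.14 above control (SE 0.099, limma adjusted p = 0.997), with 3 of 6 rats above every control and an exact permutation p of 0.0519. On the slides shared by control and low-dose rats the difference was 0.033 in males and 0.29 in females, each from 1 exposed rat against 3 controls. At the higher doses the mean differences were -0.0059 and -0.069.

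Lamp3 was read by 10 spots on every array, whose log2 values had a median SD of 0.030 within an array, well below the pooled SD of 0.22 between rats of a group. Its level ran from 2.58 to 3.00 (median 2.85) in control rats, from 2.56 to 3.11 (median 2.86) in the low-dose group, from 2.37 to 3.25 (median 2.75) in the middle-dose group and from 2.45 to 3.01 (median 2.74) in the high-dose group. The middle-dose group was the widest (SD 0.33) and held 2 rats above and 2 below every control. The mean differences were 0.024, -0.044 and -0.073, and the 95% interval in the high-dose group was -0.34 to 0.19.

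Lpcat1, the remodelling enzyme, had the largest difference of the 7 genes. Its level ran from -0.74 to -0.26 (median -0.54) in control rats, from -0.81 to -0.34 (median -0.57) in the low-dose group, from -0.88 to -0.40 (median -0.62) in the middle-dose group and from -1.20 to -0.63 (median -0.74) in the high-dose group. All 3 high-dose females (-1.20 to -0.79) were below every control rat, and the 3 high-dose males (-0.70 to -0.63) lay inside the range of male controls. The mean differences were -0.055, -0.11 and -0.31 from the lowest to the highest dose.

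In the high-dose group the Lpcat1 difference corresponded to 0.805-fold of control, with a 95% interval of 0.682 to 0.949, an exact permutation p of 0.0411 and a limma adjusted p of 0.594. Among the 21 exact permutation tests of 7 genes at 3 doses this was the only p-value under 0.05, and the smallest that 6 rats against 6 allow is 0.00216. The difference was -0.42 in females and -0.21 in males, and the difference between the sexes did not pass the test (limma adjusted p = 0.553). On the slides that held middle- and high-dose rats together, the difference between them was -0.44 in females and -0.14 in males, with 3 high-dose rats against 1 middle-dose rat each. Without the high-dose female numbered 36, whose array had the lowest 75th percentile, the difference from control was -0.24, and with the slide as a fixed block it was -0.30 with a 95% interval of -0.74 to 0.14.

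**Figure D2:**
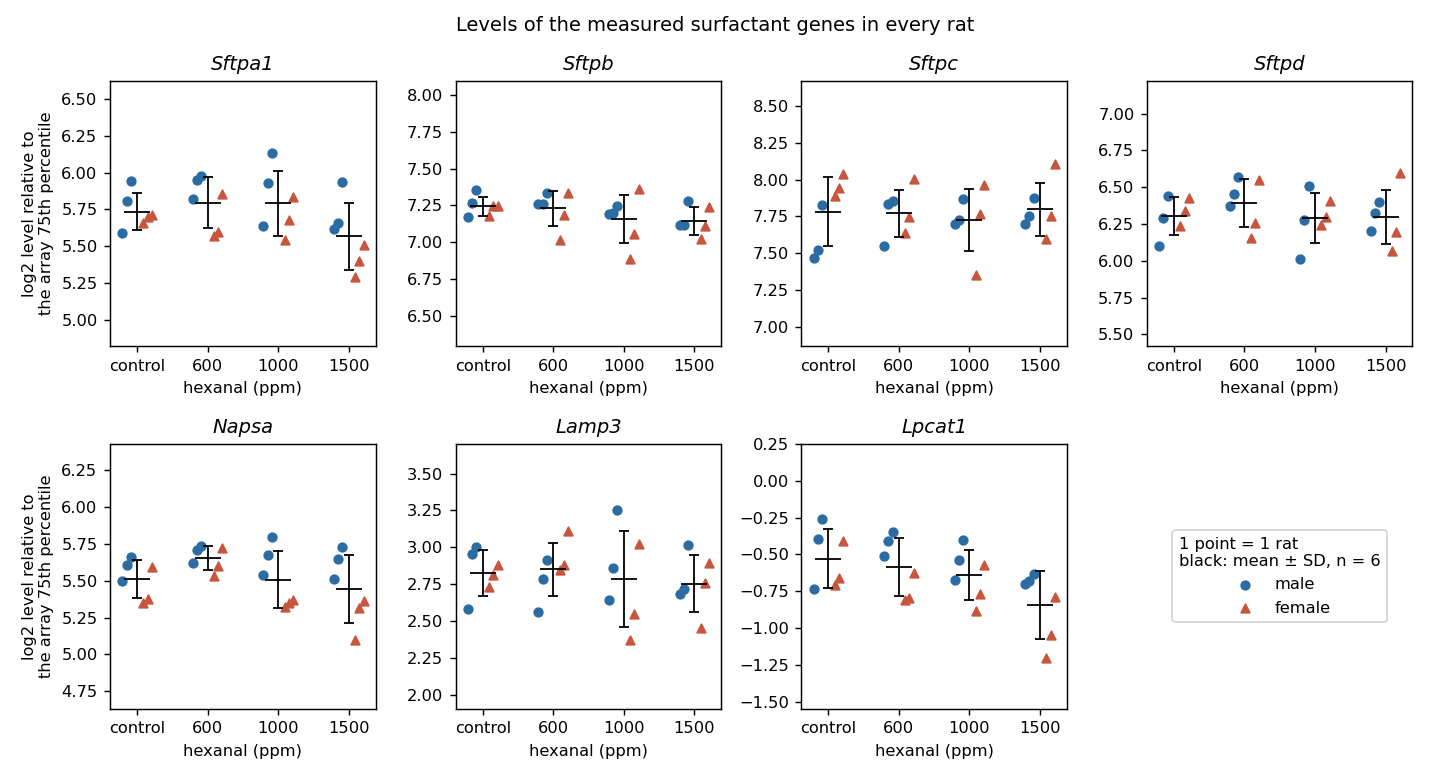
Level of each of the 7 genes in every rat (vertical axis, log2 signal relative to the 75th percentile of the array, the same span of 1.8 in each panel) by hexanal concentration. Circles are males, triangles are females and black bars are the mean ± SD of 6 rats.

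The order of the 4 groups differed from gene to gene. For 2 of the 7 genes, Sftpb and Lpcat1, the mean was lower in each group than in the one before it, from control to the high dose, and neighbouring groups overlapped in both. The same order was found for 4.92% of all genes. With the slide as a fixed block neither gene kept it, while 9.09% of all genes had that order. The differences from control were then 0.053, 0.069 and 0.17 for Sftpb and 0.041, -0.010 and -0.30 for Lpcat1. Between the middle- and low-dose groups all 7 differences were below 0, from -0.15 (Napsa) to -0.0033 (Sftpa1), beside 47.6% of all genes below 0. With the slide as a fixed block 3 of 7 were below 0, beside 48.0% of all genes. Sftpa1 (0.053), Sftpb (0.016), Sftpc (0.056) and Lamp3 (0.053) were then above it. The median moved from -0.068 to 0.016, beside 0.0064 and 0.0051 over all genes. None was called in that comparison, beside 0.631% of all genes, and none had a limma adjusted p-value under 0.05, beside 0% of all genes. The median difference of the 7 genes was 0.024, -0.044 and -0.073 in the low-, middle- and high-dose groups, beside -0.0012, 0.0046 and 0.013 over all genes tested. With the slide as a fixed block the median in the high-dose group turned to 0.17, beside 0.0028 over all genes. In that group 6 of 7 differences were below 0 (46.3% of all genes), and 2 of 7 with the slide as a fixed block (49.5% of all genes).

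No surfactant gene differed between the sexes in its dose effect at a limma adjusted p-value under 0.05. The background was 0% of all genes in the low- and middle-dose groups and 5.03% in the high-dose group. Napsa came nearest in the high-dose group, with a difference of 0.041 in males and -0.18 in females (limma adjusted p = 0.365). Slides held rats of a single sex each, and so the sexes and the slides of a dose cannot be told apart.

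Spread between rats of one group was set beside that of all genes. The pooled SD was 0.19 for Sftpa1, 0.12 for Sftpb, 0.20 for Sftpc, 0.16 for Sftpd, 0.17 for Napsa, 0.22 for Lamp3 and 0.20 for Lpcat1, beside a median of 0.23 over all genes tested. All 7 values were below that median, some of them close to it. The share of all genes with a smaller SD ran from 13.9% for Sftpb to 47.3% for Lamp3. In the table without scaling 3 of 7 were above the median of 0.30 over all genes, namely Sftpa1 (0.34), Napsa (0.31) and Lpcat1 (0.36).

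The scaled levels of 4 of the 7 genes were related to the scaling value, in opposite directions. The unscaled signal of Sftpc varied only 1.33-fold across the 24 arrays (469380 to 624502), while the 75th percentile of the arrays varied 1.84-fold (1701 to 3133) and the signal of Lpcat1 3.46-fold. The brightest Sftpc spot reached 88.9% of the scanner's saturation value, against 53.6% for Sftpb and 0.373% for Lpcat1, and no spot of the 7 genes was saturated. Deviations of the scaled Sftpc level from its group mean ran against those of the log2 75th percentile (Pearson's r = -0.83, permutation p = 1e-05, adjusted p = 7e-05 over 7 genes, and Spearman's rho = -0.85, permutation p = 1e-05), with 1e-05 the smallest p the 100000 resamples can give. Deviations of Lpcat1 ran with it (r = 0.71, permutation p = 0.00039, adjusted p = 0.00137, and rho = 0.70, permutation p = 0.00043). Without the 2 rats farthest from the median these values of r were -0.85 and 0.61, in males -0.77 and 0.81, and in females -0.85 and 0.48. The relation was weaker for Sftpa1 (r = 0.53, rho = 0.54, permutation p = 0.0187 and 0.00963, adjusted p = 0.0411 and 0.0225, r = 0.34 without the 2 rats) and for Sftpb (r = -0.44, rho = -0.38, permutation p = 0.0235 and 0.0826, adjusted p = 0.0411 and 0.144, r = -0.57 without the 2 rats).
The 75th percentile is itself the divisor of the scaled level, so an unscaled signal that stays level yields a negative r by construction. After quantile normalization the r of Sftpc was -0.016 and its pooled SD fell to 0.038, with 0.0282% of all genes smaller. That method gives probes of equal rank the same value, so a probe near the top of every array keeps little spread. The values of Sftpc after it therefore cannot show whether the relation was lost. The r of Lpcat1 after quantile normalization was 0.72. With the log2 75th percentile as a covariate, an alternative chosen after these values were seen, the high-dose difference was -0.27 for Lpcat1 (limma adjusted p = 0.385) and -0.039 for Sftpc. The median 75th percentile was 2493 in control rats and 2678, 2818 and 2610 in the low-, middle- and high-dose groups. In the control group the males numbered 1 and 3, whose Sftpc levels were the lowest of that group, had 75th percentiles of 3068 and 2987.

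**Figure D3:**
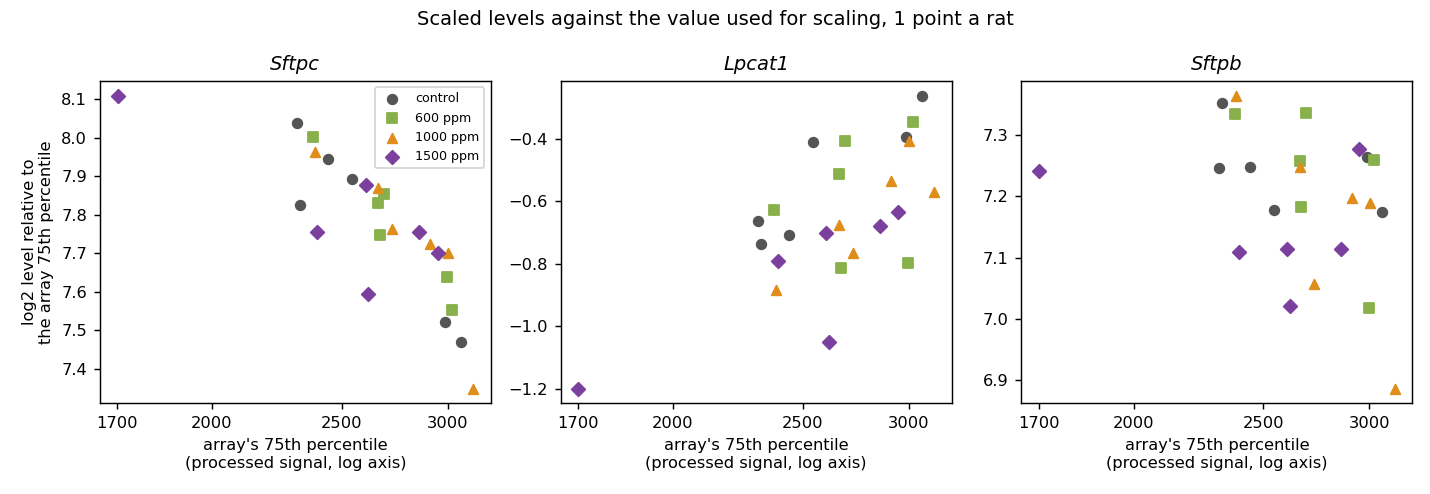
Level of Sftpc, Lpcat1 and Sftpb (vertical axis, log2 relative to the 75th percentile) against the 75th percentile of the processed signal of the same array (horizontal log axis), 1 point a rat and 1 symbol a group. Sftpc falls from left to right and Lpcat1 rises, and the point at the far left of each panel is the high-dose female numbered 36 (75th percentile 1701).

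Deviations of the 7 genes from their group means were then compared between genes over the 24 rats. Of 21 pairs, 14 had a positive r, the median r was 0.32, and 4 pairs had a Benjamini-Hochberg adjusted permutation p-value under 0.05. Without scaling all 21 values of r were positive with a median of 0.63, and after quantile normalization 17 were, with a median of 0.22. With the main scaling the 4 pairs that passed were Sftpa1 with Napsa (r = 0.64, rho = 0.52, permutation p = 0.00384 and 0.0185), Sftpb with Sftpc (r = 0.59, rho = 0.49, permutation p = 0.00383 and 0.0199), Sftpa1 with Lpcat1 (r = 0.59, rho = 0.65, permutation p = 0.00514 and 0.00182) and Napsa with Lpcat1 (r = 0.58, rho = 0.50, permutation p = 0.00604 and 0.0170), each with an adjusted p of 0.0317 for r. By rho, the adjusted p was 0.0382 for Sftpa1 with Lpcat1 and 0.105 for each of the other 3 pairs. The lowest r was -0.48, between Sftpc and Lpcat1 (adjusted p = 0.101).
Without the 2 rats farthest from the median, r was 0.46, 0.45, 0.66 and 0.57 in the order above. The mean of males was above that of females in all 4 groups for Sftpa1, Sftpb, Napsa and Lpcat1, and each slide held a single sex. It was above in 3 of 4 groups for Lamp3, in 2 for Sftpd and in 1 for Sftpc. The share of all genes with such an order is not given here. With the mean of each group and sex removed, an alternative chosen after these values were seen, 1 of the 21 pairs passed. This was Sftpb with Sftpc (r = 0.80, permutation p = 0.00228, adjusted p = 0.0479), while r was 0.30 for Sftpa1 with Napsa (permutation p = 0.258, adjusted p = 0.406), 0.20 for Sftpa1 with Lpcat1 (permutation p = 0.438, adjusted p = 0.541) and 0.18 for Napsa with Lpcat1 (permutation p = 0.489, adjusted p = 0.541). For Napsa with Lpcat1 r was -0.34 in males and 0.60 in females, and for Sftpa1 with Lpcat1 it was 0.36 and 0.19. All levels of a rat share 1 array and 1 scaling value. After quantile normalization r was 0.71 for Sftpa1 with Napsa, 0.68 for Sftpa1 with Lpcat1 and 0.74 for Napsa with Lpcat1. It was 0.052 for Sftpb with Sftpc, where that method leaves Sftpc little spread (pooled SD 0.038).

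**Figure D4:**
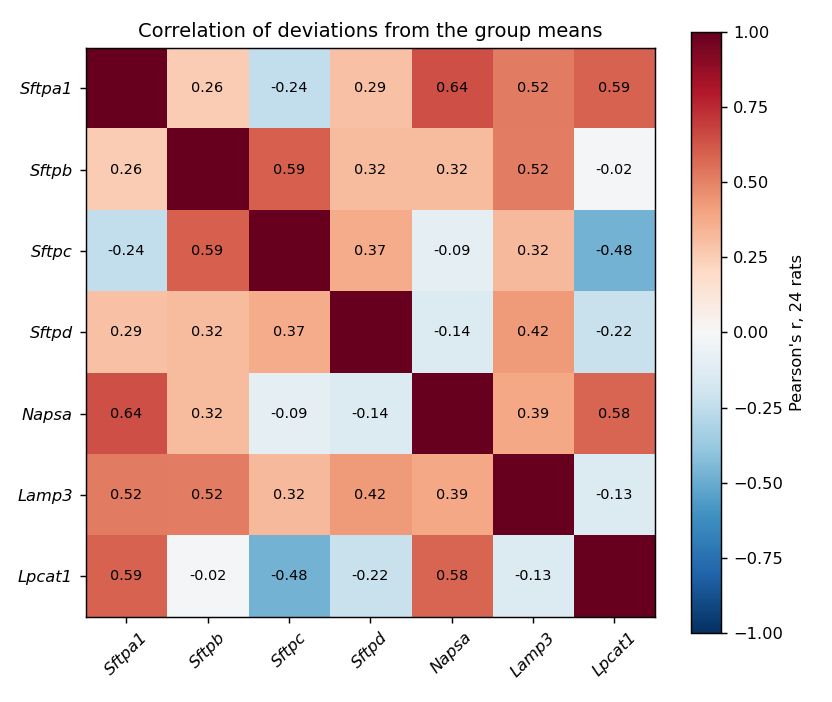
Pearson's r between the deviations of each pair of the 7 genes from their group means over 24 rats (colour and number in each cell). The highest value is 0.64, for Sftpa1 with Napsa, and the lowest is -0.48, for Sftpc with Lpcat1.

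The genes most like the surfactant genes in this variation between rats were Cd44 (a hyaluronan receptor), Cyba (a subunit of NADPH oxidase), Gpx1 (glutathione peroxidase), S100a10 (an annexin partner) and Scp2 (a lipid carrier). Their r with the mean deviation of the 7 genes was 0.86, 0.85, 0.84, 0.83 and 0.82 over 24 rats. These are the highest values among the named genes and are given as a description. Only group means were removed, so differences between the sexes, each on its own slides, can enter them. Like the surfactant genes, none of the 5 was called at any dose, beside 0.617%, 1.64% and 1.22% of all genes from the lowest to the highest dose. Their high-dose differences lay between -0.12 (Scp2) and 0.056 (S100a10).

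Other genes of the surfactant pathway were taken from lists. Of 14 genes of surfactant lipid synthesis and turnover 11 were tested, of 11 genes of surfactant processing, secretion and clearance 9, of 10 transcription factors of type II cells 10, and of 9 further type II cell markers 7. None of these 37 genes was called at any dose, read against the shares of all genes given above. Their median differences in the high-dose group were -0.055, -0.069, -0.036 and -0.12 in the same order of lists. Among them, only the transcription factors Cebpa, Klf5 and Nr3c1 differed between the sexes in their high-dose effect, beside 5.03% of all genes. The male minus female effects were -1.34, -0.98 and 0.65, with limma adjusted p of 0.000497, 0.00992 and 0.036. Each slide held a single sex, and these genes are named after their values were seen.
Nkx2-1, the lung transcription factor, differed from control by 0.010, -0.13 and -0.091 in the low-, middle- and high-dose groups, with limma adjusted p of 0.999, 0.632 and 0.841. The other type II markers were lower in mean for 6 of 7 genes in the high-dose group, beside 46.3% of all genes. No slide held both control and high-dose arrays, and values with the slide blocked are not given for these lists. For the 7 surfactant genes the same count, 6 of 7, was 2 of 7 with the slide as a fixed block. The unadjusted limma p-value was under 0.05 for 0, 2 and 3 of the 37 genes in the low-, middle- and high-dose groups, beside 4.33%, 8.99% and 6.97% of all genes. In the high-dose group these were Slc34a2, the phosphate transporter of type II cells, with a difference of -0.29 (limma adjusted p = 0.572), Egfl6 with -0.40 (adjusted p = 0.695) and Adora2b, an adenosine receptor, with -0.36 (adjusted p = 0.677). In the middle-dose group they were the forkhead factor Foxa1 with 0.26 (limma adjusted p = 0.547) and Nfib with -0.20 (adjusted p = 0.525). Nkx2-1 and these 5 genes are named after their values were seen, and none of the 5 reached 1.5-fold.

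Markers of other cells of the lung were read beside these values. Of 8 type I cell markers tested and of 6 macrophage markers none was called at any dose. Over all genes 0.617%, 1.64% and 1.22% were called in the low-, middle- and high-dose groups. The median difference of type I markers was 0.052, 0.031 and 0.032 in the same order. In the middle-dose group 2 of 5 club cell markers were called higher (Cyp2f4 by 0.89 and Scgb3a1, a secretoglobin, by 2.95), 3 of 7 heart muscle markers (Actc1 by 1.26, Tnni3 by 2.02 and Tnnt2 by 2.48) and 1 of 6 leukocyte markers (S100a8 by 0.71), with limma adjusted p-values of 0.515 to 0.548. Of the 6 leukocyte markers 3 were higher and 3 lower in mean there, the lower ones being Itgam (-0.31), Cd3e (-0.10) and Ptprc (-0.097), and of the 5 club cell markers 4 were higher and Scgb1a1 was at -0.030. The 4 ciliated cell markers tested were higher in mean there, by 0.42 to 0.54, while 48.8% of all genes were lower. They were not called, and neither were the 5 endothelial markers.
The mean log2 level of the 7 heart muscle markers ran from -2.82 to 1.63 in control rats and from -0.45 to 3.23 in the middle-dose group, while the mean level of the 7 surfactant genes ran from 4.94 to 5.01 and from 4.75 to 5.16. The mean level of the 5 club cell markers ran from 1.502 to 3.76 in control rats and from 2.73 to 5.19 in the middle-dose group. The part of these cells in the surfactant values was not tested.

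**Figure D5:**
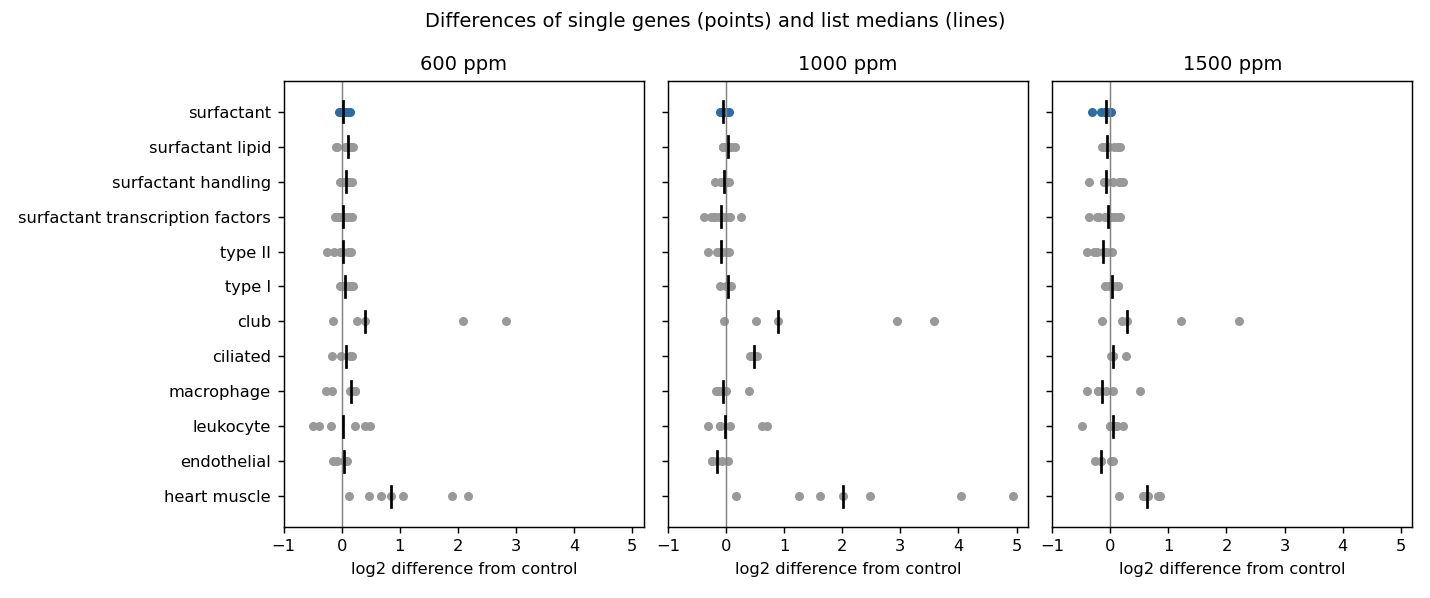
Differences from control (log2, horizontal axis) of single genes, 1 point a gene, for the surfactant genes (blue) and 11 other gene lists (grey) in the low-, middle- and high-dose groups, with list medians as black lines. The surfactant genes lie between -0.31 and 0.14, while heart muscle markers reach 4.93 and club cell markers 3.58 in the middle-dose group.

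Across the series 6 slides carried 4 arrays each, and control rats shared a slide only with 1 low-dose rat of each sex. Between 70.7% and 81.8% of probes were well above background on an array, and no probe was saturated. No surfactant gene had a rat standing apart within its group by Dixon's test in the 28 sets of 6 rats.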

How the data were processed

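Lung mRNA of 24 rats was measured on one-colour Agilent 4 x 44K rat arrays. The authors extracted spot signals with Agilent Feature Extraction 11.5.1.1, and the deposited intensities are processed signals after background subtraction, not scaled between arrays. A series-wide table that the authors deposited repeats these intensities (equal within 0.001 on the log2 scale in 99.578% or more of the probes of any array), and its column medians lie between 262.79 and 441.29. The deposited flags for background, saturation and outliers were read beside them.

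Control and outlier spots were left out and spots of a probe averaged, which gave 30367 probes, of which 18355 (60.4%) were matched by accession to a symbol through RefSeq's GRCr8 table. From each log2 signal the array's 75th percentile was subtracted. A probe was kept if 5 or more of the 6 arrays of some group had it well above background, and the probe of highest mean stood for a gene (21243 genes or unnamed probes, 12489 with a symbol). Differences were fitted on all 24 arrays with limma 3.58.1 (lmFit and eBayes) in R 4.3.3, with Benjamini-Hochberg adjustment over all genes tested. Calls used the study's fold and p-value thresholds with limma in place of its unpaired t-test, which was an alternative. Correlations were also computed with group and sex means removed, an alternative added after seeing the data. The sex difference was an interaction over groups of dose and sex, and single genes also had an exact two-sided permutation test over 924 arrangements. Correlations used 100000 permutations within groups. The scripts were tested on simulated data.

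Genes were named by rule: the 8 members, from every other list those called at any dose (at most 4 a list), and the 5 named genes most like the members. Beyond it, Nkx2-1, Slc34a2, Egfl6, Adora2b, Foxa1, Nfib, Cebpa, Klf5 and Nr3c1 were named after their values were seen. So were the marker genes named with values though not called. The members and lists were chosen with earlier results of these data known. Alternatives were other scalings and background corrections, filters, tests and blocks, and leaving out each rat. The number of arrays limits the precision. The methylation arrays of the study are not analysed here.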

Additional observations from a re-analysis of the deposited data

How the results depend on the processing

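The count of surfactant genes called was 0 in every comparison, against control at 3 doses and between the middle and low dose, under each of the 14 other settings (1 of them, the 75th percentile as a covariate, chosen after seeing the data) and without each of the 24 rats, and the count of genes whose dose effect differed between the sexes was 0 at each dose under the settings run for it (leave-one-out range 0 to 0 for each). The Lpcat1 difference in the high-dose group was below 0 in all 14 settings (-0.38 to -0.21) and without each rat (-0.36 to -0.24). Its unadjusted p was under 0.05 in 12 of 14 settings and in 24 of 24 fits without a rat. These p-values are of limma, but for the methods' t-test among the 14. Settings above 0.05 were the authors' table without scaling (limma p = 0.0746) and the slide as a fixed block (limma p = 0.170). In the high-dose group an unadjusted limma p under 0.05 was also found for Sftpb after quantile normalization and for Sftpa1 without male 18. In the middle-dose group it was found for Lpcat1 with the 75th percentile as a covariate. Of all genes 7.48%, 7.44% and 12.5% passed in these fits. The slide block moved the median high-dose difference of the 7 genes from -0.073 to 0.17, and with it Sftpc, Lamp3, Sftpd and Sftpb stood at 0.31, 0.29, 0.18 and 0.17, none of them called. The cause was not tested. The median difference of all genes was -0.0012, 0.0046 and 0.013 from the lowest to the highest dose with the main scaling. It was 0.069, 0.11 and -0.053 in the authors' table without scaling and -0.071, -0.12 and -0.052 after normexp. In the high-dose group the differences of the 6 genes other than Lpcat1, none of them called, changed sign under 1 to 3 of the 14 settings. Of all genes called at the middle dose, 79.0% were higher, and 17.4% after normexp. No paired analysis was possible because the groups share no replicate numbers. Control and the 2 higher doses share no slide, so with slides blocked the middle-dose difference is linked to control through the low-dose arrays, and the high-dose difference through the middle- and low-dose arrays.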
